A study of Mus musculus with 8 samples.

Results

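A set of 10 mRNAs of the translation machinery was followed in injured acinar cells with and without obeticholic acid. They encode 4 elongation factors (Eef1a1, Eef1b2, Eef1d and Eef2), 3 subunits of initiation factor eIF3 (Eif3e, Eif3f and Eif3h), and 3 other products: Tpt1, Pabpc1 and Npm1. The genes were chosen by symbol as known carriers of a 5′ terminal oligopyrimidine motif (TOP mRNAs), and all 10 were found among the 54427 genes of the deposited table. The cells were primary pancreatic acinar cells of wild-type (WT) mice, freshly isolated with collagenase. They were kept in medium with 2% fetal bovine serum and injured for 6 h with 1 µM cholecystokinin octapeptide (CCK), a secretagogue hormone. By their titles, 4 libraries (AP) carried the injury alone, and 4 (AP_OCA) the injury together with OCA. OCA stands for obeticholic acid, a drug that activates FXR, a nuclear receptor for bile acids. The labels state an OCA concentration of 2.5 µM, but in one text shared by all 8 libraries, so the reading that AP was free of OCA rests on the titles. The age, sex and strain of the mice, and whether replicates came from separate animals, are not given there, so the p-values measure the spread between these libraries, which may be technical.

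Elongation factors carry aminoacyl-tRNAs to the ribosome (eEF1) and move it along the mRNA (eEF2), and eIF3 holds the small subunit during initiation. TOP mRNAs, among them those of several such factors and of the ribosomal proteins, begin with a C followed by a run of pyrimidines. Through this run the growth-controlling kinase mTORC1 and the RNA-binding protein LARP1 set how much of the mRNA is translated and how long it is kept. The acinar cell makes more protein than most other cells, and CCK acts on its translation machinery as well as on secretion. RNA levels, which were measured here, do not show how much of an mRNA was being translated.

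The pyrimidine runs lie at different distances from the annotated starts. Of the 10, 5 are shown because they mark the range. In each, the capitals mark the longest run of C and T that begins with C within the 100 bases at the 5′ end of the main GENCODE transcript (GRCm38 build, the same assembly as mm10), and each window lies within a single exon.
Eif3f, chr7:108934417-108934446 (+): CTCTTTCTCggcaagatggcttctccggcc
Pabpc1, chr15:36608944-36608973 (-): CCCCTTCTCCCCggcggttagtgctgagag
Eif3h, chr15:51865465-51865494 (-): gcctcacgCTTCTCTTTCTTCCTgtctggc
Eef1a1, chr9:78481650-78481679 (-): tggacgttCTTTTTCgcaacgggtttgccg
Npm1, chr11:33163107-33163136 (-): agcgcagatctcgcgagatCTCCTgcgacc
In Eif3f and Pabpc1 the run opened the annotated transcript and was 9 and 12 bases long. In Eif3h it was 15 bases long and began at base 38, in Eef1a1 it was 7 long and began at base 54, and in Npm1 it was 5 long and began at base 90. Eef1d (15 bases) and Eif3e (12 bases) had long runs as well, while Eef2 (7), Eef1b2 (6) and Tpt1 (5) had short ones. A run of at least 8 bases was present in 5 of the 10 genes, in 57% of 79 cytosolic ribosomal protein genes and in 25.8% of 21874 protein-coding genes searched the same way. A run of at least 5 bases at the annotated start itself was present in 2 of the 10, in 10.1% of the 79 ribosomal protein genes and in 2.27% of all. A match describes these letters only, and annotated starts can lie away from the starts used in these cells. Eef1d, Eif3e, Eif3h and Pabpc1 lie on chromosome 15 and the other genes each on a chromosome of their own.

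Levels are written as counts per 1000000 (CPM), here a position in a distribution that the authors' normalisation made common to all libraries. Per kilobase of transcript, the order of mean levels in AP was led by Eef1a1 (1863 ± 245 CPM per kb; SD, n = 4), Tpt1 (1222 ± 138), Eef2 (704 ± 122) and Eef1b2 (146 ± 14.0). Eif3h followed at 69.7 ± 5.73. The ranges of these 5 genes did not overlap with their neighbours in that order. Pabpc1 (38.6 ± 10.4), Eif3f (35.4 ± 3.94), Eef1d (34.7 ± 4.38), Npm1 (33.2 ± 12.3) and Eif3e (23.9 ± 7.72) came last, each with a range that overlapped the next. Within its library Eef1a1 held rank 31 to 35 of all genes in 7 of the 8 libraries and rank 15 in AP_OCA replicate 2.

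AP_OCA replicate 2 stood apart from the other 7 libraries and is therefore shown separately throughout. Its correlation with the others across tested genes, on the log2 scale, was 0.561 to 0.635, against 0.873 to 0.981 among the other 7. Of those 7, AP_OCA replicate 4 correlated least with the rest (0.873 to 0.940, against 0.941 to 0.981 without it). AP_OCA replicate 4 was also the library closest to AP_OCA replicate 2 (0.635). AP_OCA replicate 2 listed 21010 genes above 0 where the others listed 15394 to 16640. Markers of lymphocytes summed to 3654 CPM in it and to 2.13 to 38.2 in the other 7, in which Cd3e and Cd3g were listed at 0, and for all 13 of those markers it exceeded the next library by over 2-fold. Macrophage and myeloid markers summed to 932 against 100.2 to 184 CPM, and duct markers to 40.6 against 273 to 469. None of the 13 acinar markers was listed at 0 throughout the 7, and their summed level was 476420 to 489584 CPM in AP, 437215 to 476061 in AP_OCA replicates 1, 3 and 4, and 424140 in AP_OCA replicate 2, where 4 of the 13 lay over 2-fold below the other 7. In bulk RNA, fewer cells of a type and less RNA per cell cannot be told apart.

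None of the 10 mRNAs passed the test between AP_OCA and AP, either over all 8 libraries or over the 7. The comparison asks whether adding OCA to CCK-injured acinar cells changed the level of these mRNAs. Over the 7 libraries Npm1, Eif3e and Eef1d had the largest positive log2 fold changes (AP_OCA over AP, 1.02, 0.84 and 0.51) and Eef2 had the largest negative one (-0.82). Those of Eef1a1, Eif3f, Tpt1 and Pabpc1 were smaller in size than their standard errors. By limma with Benjamini-Hochberg adjustment, the smallest adjusted p was 0.0756 (Eif3e) over 7 libraries and 0.260 (Npm1) over 8. The background of passing genes was 2.44% of 10894 tested genes over 7 libraries (0.854% higher, 1.59% lower) and 0% of 11311 over 8. At an unadjusted p under 0.05, Npm1, Eif3e and Eef1d were higher and Eef2 lower in both comparisons. All tested genes did so in 11.8% (higher) and 13.9% (lower) of cases over 7 libraries, and in 7.31% and 8.87% over 8. The calls moved with the weight given to each library. With limma's quality weights per library Npm1 (0.70, adjusted p = 0.0206), Eif3e (0.66, adjusted p = 0.0248) and Eef1d (0.44, adjusted p = 0.0368) passed over 7 libraries, and Npm1 (0.72, adjusted p = 0.0364) and Eif3e (0.65, adjusted p = 0.0499) over 8. With these weights 1675 of the 10894 tested genes passed over 7 libraries and 1052 of 11311 over 8. Eif3e also passed over 7 libraries when AP_OCA replicate 1 was left out (1.02, adjusted p = 0.0391). With 1 of the 7 libraries left out, 7 to 973 of all tested genes passed.

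**Figure D1:**
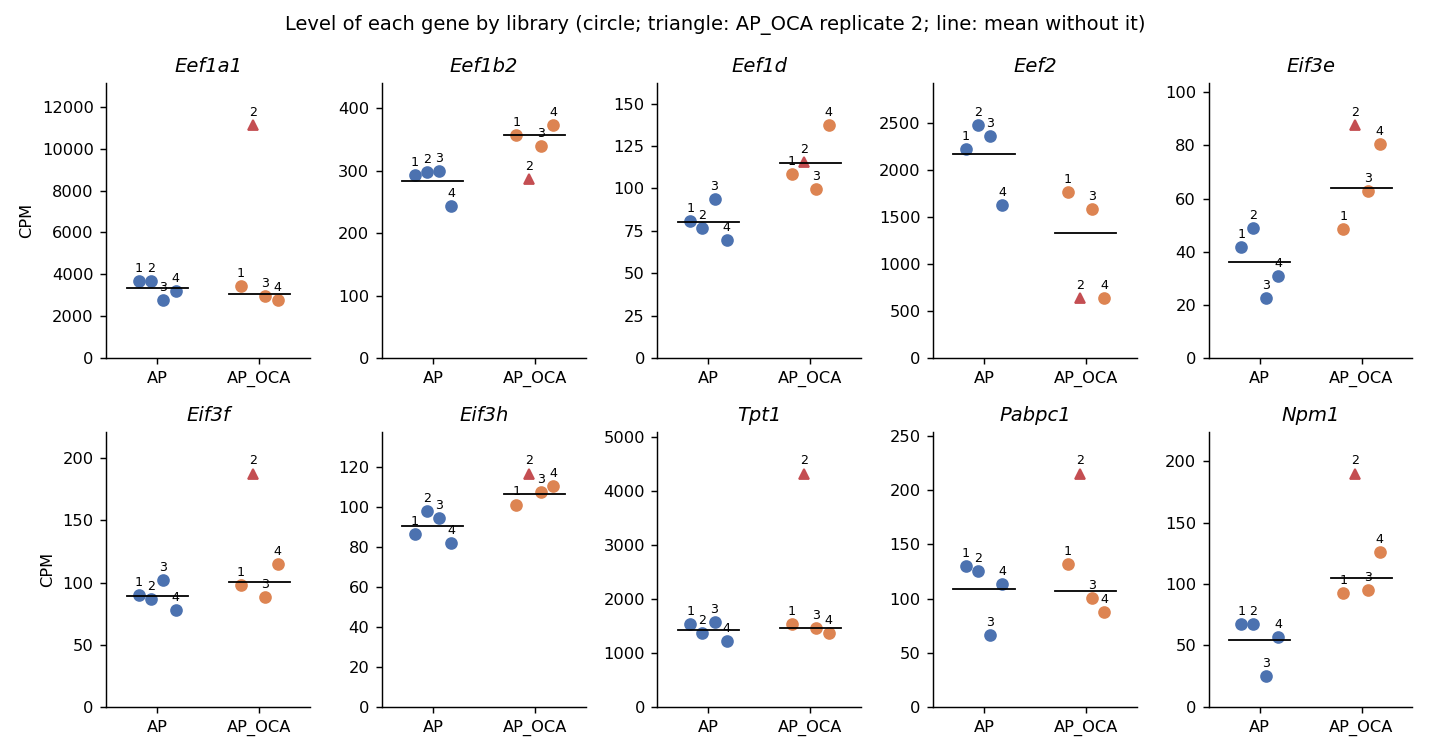
Level in CPM (vertical axis, from 0, a separate scale for each gene) of the 10 mRNAs in each library, numbered by replicate, with blue circles for AP, orange circles for AP_OCA and a red triangle for AP_OCA replicate 2. Lines are group means without AP_OCA replicate 2, and that library is the highest of all for 7 of the 10 genes and the lowest for Eef2.

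Among the elongation factors the 2 most abundant, Eef1a1 and Eef2, gave fold changes of unlike size. Eef1a1, which delivers aminoacyl-tRNA to the ribosome, stood at 3695, 3696, 2790 and 3190 CPM in AP replicates 1 to 4. It stood at 3462, 2954 and 2790 in AP_OCA replicates 1, 3 and 4, and at 11155 in AP_OCA replicate 2. AP_OCA replicates 1, 3 and 4 fell inside the AP range, and replicate 2 lay 3.02-fold above the highest other library. Its log2 fold change was -0.12 ± 0.17 (SE) over 7 libraries and 0.35 ± 0.44 over 8, so the sign rests on that library. Eef2, the translocase, stood at 2226, 2483, 2362 and 1631 CPM in AP replicates 1 to 4. It stood at 1770, 1581 and 642 in AP_OCA replicates 1, 3 and 4, and at 634 in replicate 2. AP_OCA replicates 2 and 4 were thus the low pair, while replicate 1 lay above AP replicate 4, so the groups overlapped. Mean levels were 2175 ± 378 in AP (SD, n = 4) and 1331 ± 604 in AP_OCA without replicate 2 (n = 3), a log2 fold change of -0.82 ± 0.31 (adjusted p = 0.138). Without AP_OCA replicate 4 it was -0.36. The ratio of Eef2 to Eef1a1 was 0.511 to 0.847 in AP and 0.511, 0.535 and 0.230 in AP_OCA replicates 1, 3 and 4, against 0.0568 in replicate 2.

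Eef1b2 and Eef1d encode the exchange-factor subunits that recharge eEF1A with GTP, and both separated the groups over the 7 libraries. Eef1b2 stood at 293, 297, 299 and 243 CPM in AP and at 357, 339 and 374 in AP_OCA replicates 1, 3 and 4. AP_OCA replicate 2, at 287, lay among the AP values. The log2 fold change was 0.34 ± 0.16 (adjusted p = 0.204). Eef1d stood at 80.5, 76.5, 93.8 and 69.8 CPM in AP, at 108, 99.6 and 138 in AP_OCA replicates 1, 3 and 4, and at 115 in replicate 2. All 4 AP_OCA libraries therefore lay above every AP library. Its log2 fold change was 0.51 ± 0.18 (adjusted p = 0.102) over 7 libraries and 0.52 ± 0.22 (adjusted p = 0.299) over 8.

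Of the 3 eIF3 subunits, Eif3h separated the groups, Eif3e overlapped through 1 library and Eif3f overlapped more widely. Eif3e, a subunit of the eIF3 core, stood at 41.8, 48.9, 22.6 and 30.8 CPM in AP. It stood at 48.4, 62.8 and 80.7 in AP_OCA replicates 1, 3 and 4, and at 87.8 in replicate 2. Only AP replicate 2 reached into the AP_OCA range, just above AP_OCA replicate 1. Means were 36.0 ± 11.6 (SD, n = 4) and 64.0 ± 16.2 (n = 3), a log2 fold change of 0.84 ± 0.25. Eif3f, a subunit with an MPN domain, stood at 89.9, 86.9, 102 and 77.7 CPM in AP. It stood at 97.9, 88.4 and 115 in AP_OCA replicates 1, 3 and 4, and at 188 in replicate 2. The groups overlapped, and the log2 fold change over 7 libraries was 0.17 ± 0.17. Eif3h, the other MPN subunit, stood at 86.4, 98.0, 94.6 and 81.9 CPM in AP. It stood at 101, 107 and 110 in AP_OCA replicates 1, 3 and 4, and at 117 in replicate 2. Every AP_OCA library lay above every AP library, by a small margin (log2 fold change 0.24 ± 0.16 over 7 libraries, adjusted p = 0.353).

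Npm1, the nucleolar chaperone nucleophosmin, had the largest difference of the 10. It stood at 67.4, 67.4, 25.0 and 57.2 CPM in AP replicates 1 to 4 and at 92.4, 95.4 and 126 in AP_OCA replicates 1, 3 and 4, with 190 in replicate 2. Every AP_OCA library lay above every AP library, and AP replicate 3 was the lowest of all. Means were 54.3 ± 20.1 (SD, n = 4) and 105 ± 18.8 (n = 3), a log2 fold change of 1.02 ± 0.31 (adjusted p = 0.0806), and 0.69 (adjusted p = 0.0790) without AP replicate 3. Pabpc1, the cytoplasmic poly(A)-binding protein, stood at 130, 125, 66.2 and 114 CPM in AP. It stood at 132, 100.3 and 87.6 in AP_OCA replicates 1, 3 and 4, and at 215 in replicate 2. AP replicate 3 was again the lowest, and the groups overlapped (log2 fold change -0.0025 ± 0.24, adjusted p = 0.995). Tpt1 encodes the translationally controlled tumour protein, named for the control of its mRNA at translation. It stood at 1534, 1372, 1581 and 1228 CPM in AP and at 1534, 1463 and 1372 in AP_OCA replicates 1, 3 and 4. The AP_OCA values fell inside the AP range (log2 fold change 0.03 ± 0.16, adjusted p = 0.919), while AP_OCA replicate 2, at 4329, lay 2.74-fold above the highest other library.

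**Figure D2:**
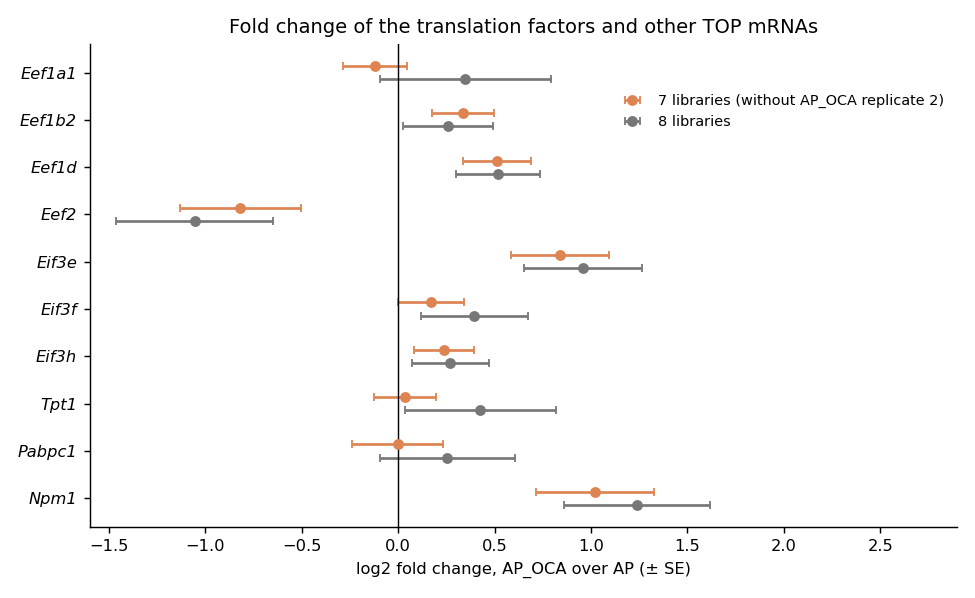
Log2 fold change of AP_OCA over AP (horizontal axis) with its standard error for each of the 10 mRNAs, in orange over 7 libraries and in grey over all 8. Over 7 libraries the values run from -0.82 (Eef2) to 1.02 (Npm1), and the errors are wider over 8 for each gene.

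Counted together, 7 of the 10 had a positive log2 fold change over 7 libraries and 9 of 10 over 8, beside 50% and 49.1% of all genes tested. The median of the 10 was 0.20 over 7 libraries and 0.37 over 8, and that of all tested genes was 0.00 and -0.01. Groups did not overlap, with AP_OCA higher, for 4 of the 10 over 7 libraries (Eef1b2, Eef1d, Eif3h and Npm1; 11.1% of all genes) and for 3 of 10 over 8 (Eef1d, Eif3h and Npm1; 6.75%). None was lower without overlap (12.1% and 8.57% of all genes). These counts describe the 10 mRNAs, which are not replicates of the condition.

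Library by library, the 10 mRNAs did not shift as one. In AP_OCA replicate 1 all 10 lay above their own mean over the 7 libraries, with an average difference of 0.17 on the log2 scale. AP replicate 4 had 1 of 10 above (average -0.22). In AP replicate 3, 4 of 10 lay above although the average was -0.26, since Npm1 (-1.42), Eif3e (-0.95) and Pabpc1 (-0.66) were far below and Eef2 (0.49) was above. In AP_OCA replicate 4, Npm1 (0.87), Eif3e (0.84) and Eef1d (0.56) were high and Eef2 (-1.39) was low. AP_OCA replicate 2 ran from 1.80 for Eef1a1 and 1.59 for Tpt1 to -1.41 for Eef2. The summed share of the 10 in all CPM was 0.672% to 0.835% in AP, 0.584% to 0.770% in AP_OCA replicates 1, 3 and 4 and 1.73% in replicate 2. The share of the 79 ribosomal protein mRNAs was 2.28% to 2.57%, 2.93% to 4.07% and 7.23% in the same order.

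**Figure D3:**
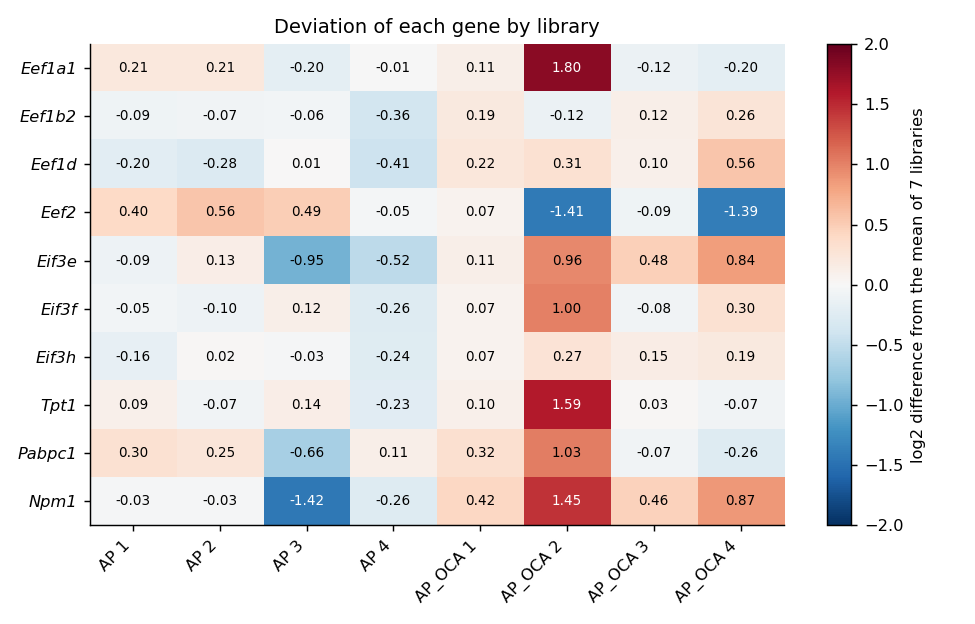
Difference of log2(CPM + 1) from the gene's mean over the 7 libraries without AP_OCA replicate 2, for the 10 mRNAs (rows) in the 8 libraries (columns), red above and blue below. AP replicate 3 is lowest for Npm1 (-1.42) and Eif3e (-0.95), and AP_OCA replicate 2 is highest for Eef1a1 (1.80).

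The order of the fold changes ran alongside the GC content of the transcripts at both ends. Eif3e (40.3% GC) and Npm1 (42.4%) had the lowest GC content of the 10 and the largest positive fold changes, and Eef2 had the highest GC content (57.0%), the longest transcript (3089 bases) and the largest negative one. Between these ends there was no such order. Eef1d (52.7% GC) stood at 0.51 and Tpt1 (53.1%) at 0.03, with Eef1a1 (47.4%) at -0.12. When all tested genes were ranked by GC content and cut into 5 equal groups, medians ran from 0.26 in the group lowest in GC to -0.23 in the highest. With each library's trend with length and GC content removed, Npm1 stood at 0.51 (adjusted p = 0.209), Eif3e at 0.21 (adjusted p = 0.470) and Eef2 at -0.49 (adjusted p = 0.301). Eef1d then stood at 0.61 (adjusted p = 0.0751), Eef1b2 at 0.07, Eif3h at 0.02 (adjusted p = 0.939) and Eef1a1 at -0.36 (adjusted p = 0.222). The median of the 10 was 0.05. Whether base composition plays a part in the differences between the groups was not tested.

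Among other genes of translation, 4 of 121 tested passed over 7 libraries (2 rose and 2 fell) and none over 8, outside the 10 and the ribosomal proteins. That share is near the 2.44% of all tested genes that passed over 7 libraries, so the 4 are named as single genes and the count is not a result about the lists. Eif4g1, the scaffold of the cap-binding complex, fell by 0.95 ± 0.19 on the log2 scale (adjusted p = 0.0285), from 320, 353, 320 and 374 CPM in AP to 220, 186 and 132 in AP_OCA replicates 1, 3 and 4. Eif2ak3, which encodes the eIF2 kinase PERK, fell by 1.03 ± 0.21 (adjusted p = 0.0310). Paip2, an inhibitor that binds the poly(A)-binding protein, rose by 1.05 ± 0.21 (adjusted p = 0.0285), from 18.5, 20.5, 13.9 and 16.7 CPM to 30.2, 33.9 and 48.4. Nhp2, a nucleolar protein of box H/ACA particles, rose by 1.05 ± 0.22 (adjusted p = 0.0348). The count of 4 became 0 without AP replicate 1, 2, 3 or 4 or without AP_OCA replicate 3, and 14 without AP_OCA replicate 1. The number of all tested genes passing also moved, from 266 to between 7 and 973 with 1 library left out. These counts are therefore not a result about the lists either. The log2 fold changes kept their sign when 1 library was left out, from -1.12 to -0.75 for Eif4g1, -1.18 to -0.84 for Eif2ak3, 0.86 to 1.19 for Paip2 and 0.78 to 1.21 for Nhp2. In AP_OCA replicate 2 Eif4g1 stood at 61.1 and Eif2ak3 at 10.9 CPM, below the other 7, and Paip2 (42.3) and Nhp2 (41.7) stood within the range of the other AP_OCA libraries. With the length and GC trend removed, Eif2ak3 (-0.78, adjusted p = 0.0490) and Nhp2 (0.86, adjusted p = 0.0401) passed, and Eif4g1 (-0.59, adjusted p = 0.0722) and Paip2 (0.44, adjusted p = 0.110) did not.

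The rest of the eIF3 complex held no call. Of 11 other subunits, 9 had a positive log2 fold change over 7 libraries (median 0.32) and 8 over 8 (median 0.08). Eif3m, the subunit nearest the threshold, stood at 50.7, 50.2, 33.6 and 46.2 CPM in AP, at 60.1, 75.6 and 109 in AP_OCA replicates 1, 3 and 4, and at 76.7 in replicate 2 (log2 fold change 0.82 ± 0.22, adjusted p = 0.0576). Once the trend with length and GC was taken out it had 0.30 (adjusted p = 0.271). Eif3i stood at 0.48 ± 0.18 (adjusted p = 0.119). The list of other elongation factors, which also holds related genes such as Eef2k, Eef1e1 and Dph3, had no call among 11 tested (median 0.15). Dph3, which serves the diphthamide modification of eEF2, stood at 1.04 ± 0.30 (adjusted p = 0.0675), and Eef1e1, a component of the tRNA synthetase complex, at 0.63 ± 0.23 (adjusted p = 0.118).

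The 13 other non-ribosomal TOP mRNAs gave a median of 0.32 over 7 libraries and 0.39 over 8, with 10 and 11 positive and no call. Eif3a, Eif3k and Eif3l stand both in this list and among the eIF3 subunits above, and Eef1g is a further member. Btf3 (0.75 ± 0.19, adjusted p = 0.0517) and Naca (0.68 ± 0.17, adjusted p = 0.0530) encode the partners of the nascent-polypeptide-associated complex. Both had every AP_OCA library above every AP library, but they were named for the lowest p of this list. That separation is therefore partly built in. Of the 13, 4 separated this way over 8 libraries, beside 6.75% of all genes. The cap-binding and scanning factors had 1 of 18 passing, Eif4g1, and a median of 0.31, and the eIF2 group had 1 of 16, Eif2ak3, and a median of 0.16. Poly(A) tail binding and release factors had 1 of 12, Paip2 (median 0.19), and nucleolar assembly factors 1 of 20, Nhp2 (median 0.33). A single call in a list of this size is too few to compare with the 2.44% of all genes. Once the trend with length and GC was taken out, the median over 7 libraries was 0.16 for the other TOP mRNAs and 0.12 for the cap-binding factors. Naca then stood at 0.24 (adjusted p = 0.387) and Btf3 at 0.48 (adjusted p = 0.141).

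Regulators of TOP mRNAs and mTORC1 held no call among 27 tested (median 0.17 over 7 libraries). Pdcd4, which blocks the helicase eIF4A, stood at 13.6, 15.5, 11.1 and 14.5 CPM in AP, at 24.1, 20.7 and 26.8 in AP_OCA replicates 1, 3 and 4 and at 63.8 in replicate 2 (log2 fold change 0.76 ± 0.19 over 7 libraries, adjusted p = 0.0513). Eif4ebp2, a repressor of the cap-binding protein, stood at -0.65 ± 0.19 (adjusted p = 0.0683). Over all 8 libraries Eif4ebp2 had -0.37 (adjusted p = 0.531), and with the length and GC trend removed there it had 0.0033.

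Cytosolic ribosomal proteins, the largest class of TOP mRNAs, had 12 of 78 rising over 7 libraries and none falling, beside 0.854% of all genes higher and 1.59% lower. Their median was 0.50, beside 0.20 for the 10 translation factors and companions and 0.00 for all genes, and it was 0.22 with the length and GC trend removed. Examples are Rpl17 (1.09 ± 0.20, adjusted p = 0.0267), Rps13 (0.89 ± 0.18) and Rpl36a (0.99 ± 0.20). Rps27a, the ubiquitin fusion, rose by 1.79 ± 0.18. After removal of that trend, 2 of the 78 passed, while the number of all tested genes passing went from 266 to 118. Rps27a was called there (1.36, adjusted p = 0.00189), while Rpl17 (0.67, adjusted p = 0.0656), Rps13 (0.51, adjusted p = 0.112) and Rpl36a (0.38, adjusted p = 0.144) were not. The count was 1 without AP replicate 1, 2, 3 or 4, 2 without AP_OCA replicate 3, 5 without AP_OCA replicate 4 and 23 without AP_OCA replicate 1, and no ribosomal protein passed over all 8 libraries. In those fits with 1 of the 7 libraries left out, 7 to 973 of all tested genes passed. A difference between this class and the 10 was not tested.

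**Figure D4:**
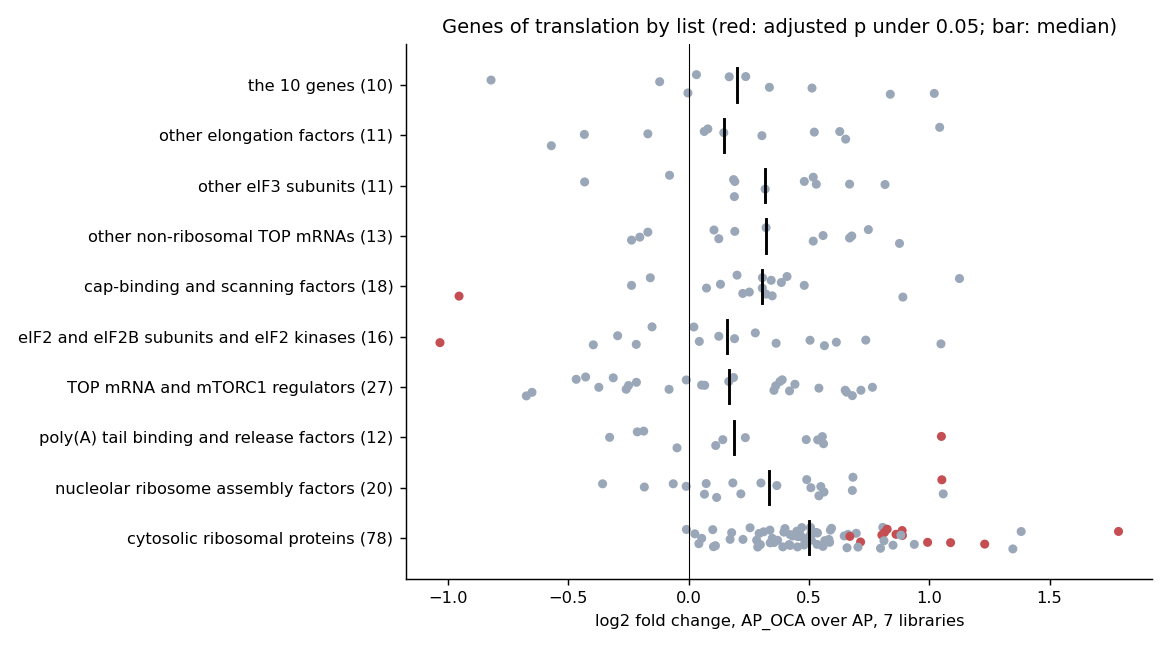
Log2 fold change of AP_OCA over AP over 7 libraries (horizontal axis) for the 10 mRNAs and 9 lists of translation genes, with 1 point per tested gene, red where it passed and a black bar at the median. Medians run from 0.15 (other elongation factors with related genes) to 0.50 (ribosomal proteins), with 0.20 for the 10.

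The pattern most like the average of the 10 mRNAs over the 7 libraries belonged to Nolc1 (Pearson's r = 0.973), Tiparp (0.972), Sfxn1 (0.966), Mios (0.964) and Ddx52 (0.964). These were the 5 highest of the tested protein-coding genes outside the 10, given as a description over 7 libraries that share groups and normalisation. Nolc1 stood at 27.6, 25.5, 17.9 and 19.8 CPM in AP and at 29.7, 26.0 and 27.7 in AP_OCA replicates 1, 3 and 4, with overlapping groups. The members followed their own average unevenly: Eif3e (0.864), Npm1 (0.851) and Eef1b2 (0.755) closely, Tpt1 (0.196) and Eif3f (0.299) loosely, and Eef2 inversely (-0.319). Each member is part of that average, and those with a wide spread weigh more in it, so a high r is partly built in.

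Summed markers of 3 other cell types separated the groups over the 7 libraries. Those of islet cells, lymphocytes, macrophages and myeloid cells, neutrophils, and adipocytes and mesothelium overlapped. Such a sum is led by its most abundant genes. Endothelial markers summed to 119 to 149 CPM in AP and 45.2 to 105 in AP_OCA, stellate and fibroblast markers to 184 to 247 and 116 to 173, and duct markers to 273 to 338 and 374 to 469, with no overlap in any of the 3. The summed acinar markers given above did not overlap either, by a narrow margin, and were lower in AP_OCA. Of the 4 lists without overlap none had a gene listed at 0 in all 7 libraries. The mitochondrial share was 0.181% in AP replicate 3, the library lowest for Npm1, Eif3e and Pabpc1, against 0.372% to 0.535% in the other 6. The part of these measures in the values above was not tested.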

How the data were processed

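RNA sequencing of 8 libraries was analysed. Per the labels' protocols, RNA was taken with an RNeasy kit, 2 µg of it went into each library, and a SMARTER kit was used; per the submitters' processing notes the build was mm10. The aligner, counting tool and annotation are not given in the sources used here. The authors deposited log2 values: the lowest is -6.64 in each library, the log2 of the offset 0.01, and all libraries share their highest value, as after quantile normalisation. Columns were matched to samples by title. Values were returned to the linear scale, the offset removed, and each library scaled to 1000000 (CPM). Depth is unknown beyond the steps of low values: 9 to 14 steps lay below 1 CPM in 7 libraries and 65 in AP_OCA replicate 2. Genes averaging 1 CPM or more were tested on log2(CPM + 1) with limma 3.58.1 (R 4.3.3; trend, robust), adjusted by Benjamini-Hochberg over all tested genes, threshold 0.05. A fold change on this scale understates that of low genes. Standard errors come from the same fit. The fitting code was tested on data simulated with the spread of the 7 libraries without AP_OCA replicate 2. That spread does not cover a library such as AP_OCA replicate 2. Reads of processed pseudogenes, such as Tpt1-ps3 at 37.9 to 102 CPM, may be split from those of Tpt1 and its like, and how they were counted is unknown. GENCODE M21 gave lengths, GC content and sequences by symbol for 53749 genes, 1 main transcript each. Named genes were the 10, every passing gene of a list (at most 4, or the 2 with the lowest p where none passed), and the 5 most alike. The members, lists and tests were chosen with earlier results of these data known. Alternatives were pseudocounts of 0.1 and 5, no filter and a minimum of 5 CPM, limma without trend, a second quantile normalisation, median centring, enzymes left out, the replicate block, quality weights, the length and GC trend removed, and each library left out.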

Additional observations from a re-analysis of the deposited data

Results flagged for a closer look

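In 7 of the 62 groups of 4 libraries looked at, 1 library lay farther from the other 3 than the 95% limit of Dixon's gap over range allows, where chance gives about 1 in 20. AP_OCA replicate 2, already set apart, was that library in 6 of the 7, so these 6 restate how it differs and are not a finding of their own. Sfxn1 and Mios were moreover chosen over the 7 libraries without it, and Pdcd4 and Rps13 by their p in the fit over those 7. For such genes the rate of 1 in 20 is not a fair measure. It stood at 11155 CPM for Eef1a1 (gap over range 0.920), 4329 for Tpt1 (0.945), 63.8 for Pdcd4 (0.858) and 533.5 for Rps13 (0.843), all above the other AP_OCA libraries. It stood at 9.45 CPM for Sfxn1 (0.906) and 6.15 for Mios (0.830), below them. The remaining one was Eef1b2 in AP, where replicate 4 stood at 242.6 CPM, below the other 3 (0.891). AP_OCA replicate 2 is left out of the comparison over 7 libraries, and Eef1b2 without AP replicate 4 had a log2 fold change of 0.26 (adjusted p = 0.419) there.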

How the results depend on the processing

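Over 8 libraries the number of passing genes was 0, and 1 with digestive enzymes left out, 1052 with quality weights per library and 0 to 266 with 1 library left out (266 without AP_OCA replicate 2). With quality weights 2 of the 10 mRNAs passed (Npm1 and Eif3e), 15 other genes of translation and 24 ribosomal proteins; with 1 library left out these were 0, 0 to 4 and 0 to 12. Over 7 libraries the 266 became 156 at a pseudocount of 0.1, 0 without a filter, 14 without trend, 162 without enzymes, 559 with the replicate block, 1675 with quality weights, 118 with the length and GC trend removed, 22 with that and the block, and 7 to 973 with 1 more library left out. Of the 10, 2 passed with the replicate block (Npm1 and Eif3e), 3 with quality weights (also Eef1d), and 0 to 1 with 1 library left out (Eif3e without AP_OCA replicate 1). Other genes of translation passing, 4 in the comparison as reported, numbered 8 at a pseudocount of 5 and at a minimum of 5 CPM, 0 without a filter or trend, 12 with the replicate block, 21 with quality weights, 2 with length and GC trend removed, 1 with that and the block, and 0 to 14 with 1 library left out. Ribosomal proteins passing, 12 as reported, numbered 5 at a pseudocount of 0.1 and without enzymes, 0 without a filter, 1 without trend, 39 with quality weights, 2 with length and GC trend removed, 1 with that and the block, and 1 to 23 with 1 library left out. The cause of these shifts was not tested, beyond the change in genes or libraries that each alternative makes.

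The sign of the difference turned for 5 genes. Over 8 libraries Eef1a1 had -0.13 and Pabpc1 -0.10 with quality weights, Eef1b2 had -0.042 and Eif4ebp2 0.0033 with the length and GC trend removed, with or without the replicate block, and with 1 library left out Eef1a1 ranged from -0.12 to 0.55 and Pabpc1 from -0.0025 to 0.43. Over 7 libraries Tpt1 had -0.15 with that trend removed and -0.16 with the block as well, and -0.037 to 0.084 with 1 library left out. Pabpc1 had 0.080 with the replicate block and 0.066 with the trend removed as well, and -0.22 to 0.13 with 1 left out. Deviations of same-numbered libraries from their group means correlated at -0.166, 0.034, 0.116 and -0.026, and AP replicate 1 correlated best with AP_OCA replicate 2. The AP_OCA mean included that outlying library, which shifts the deviations of the other AP_OCA libraries. These correlations therefore cannot decide whether the replicate numbers pair the libraries. Unknown read depth limits the precision of each level.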
